A study of Mus musculus with 8 samples.

Results

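The borders of topologically associating domains (TADs) in newborn mouse lens epithelium were compared with the interiors and surroundings of the same TADs for binding of CTCF and for chromatin loop anchors. The members were the 3592 distinct ends of the 1796 epithelium TADs on chromosomes 1 to 19 and X, 1796 left and 1796 right, out of 15999 distinct TAD ends in the lists of lens epithelium, lens fiber cells and embryonic stem (ES) cells. A window of 10 kb to either side was laid on each end, on the 1794 distinct TAD centres and on the 3576 distinct points lying 100 kb outside an end, and a window counted as CTCF-bound where it held the summit of at least 1 epithelium CTCF peak. An end was called anchored where the interval of an epithelium loop anchor lay within 10 kb of it.

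The epithelium came from CD-1 mice at postnatal day 0.5, and was microdissected away from the lens fibers, the elongated cells into which it differentiates. No gene was altered and no treatment was given in any group. Hi-C, which joins and sequences DNA stretches that touch in the nucleus, was done on 2 pools of 30 epithelium samples, and the contacts of both pools were merged before loops and TADs were called. CTCF ChIP-seq had 1 sample per lens cell type in the labels, prepared from 200 lenses, while the study's methods describe replicates and another amount of chromatin; 1 peak list per cell type was used. The fiber lists came from fibers of mice of the same strain and age, and the ES cell TADs from the wild-type v6.5 line grown without feeder cells in LIF.

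Each cell type therefore contributed 1 merged list, and no spread between animals could be computed. The 95% intervals given here (Wilson for shares, Katz for ratios) cover counting error over windows, which are neighbours on the same chromosomes and not replicates. Depth is unknown from the lists. They held 8005 epithelium loops, 16374 epithelium and 23774 fiber CTCF peaks, and 2640 fiber and 3604 ES cell TADs on these chromosomes. No list measures expression, so the identity of the dissected cells was not checked against marker genes.

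CTCF is a zinc finger protein that binds DNA at an asymmetric motif. Cohesin, a ring-shaped complex, extrudes loops of chromatin and is halted at CTCF, most readily where the motif points towards the oncoming loop. Loops thus often join a pair of sites that face each other, and TADs, stretches within which DNA contacts itself more often than its surroundings, often end at such sites. In a differentiating tissue such as the lens, this folding can bring enhancers near to genes or keep them apart.

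The letters of the CTCF motif were read in promoters only, and so at a small part of the CTCF-bound borders. No genome was at hand, so the core of the CTCF motif (CC, 3 bases of any kind, AG, 2 bases of any kind, then GGC) was searched on both strands, with no other motif, only in the RefSeq promoters of GRCm38.p6, the build to which the mm10 coordinates of the lists belong; a promoter here runs from 250 bases before to 50 bases after a gene's start. It occurred in 8.67% of all 32585 promoters (95% interval 8.37 to 8.98). Of the 322 promoters that held an epithelium CTCF summit, 63.0% contained it (57.6 to 68.1), and of the 42 that also lay within 10 kb of a TAD end, 66.7% did (51.6 to 79.0). The other 280 contained it in 62.5% of cases (56.7 to 68.0), an interval that overlaps that of the 42. A summit lay in 2.24% of the 1879 promoters near a TAD end (1.66 to 3.01) and in 0.912% of the 30706 others (0.812 to 1.02). Promoters near ends contained the motif in 12.7% of cases (11.2 to 14.2).

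The 28 promoters with both summit and motif near an end held 26 distinct sites. The motif, read as written above, ran towards the TAD interior at 18 of them (69.2%, 50.01 to 83.5), at 11 of 16 sites by left ends and at 7 of 10 sites by right ends. At such small numbers the interval reaches down to nearly equal shares of both directions. Motif and summit needed only to share a promoter, and no limit was set on their distance. At Gosr1, an inward site by a right end, the summit lay at -132 bases from the site, towards lower coordinates. For each side and each strand, the pair of sites with the strongest summits are given here, 5′ to 3′ along the motif, with the 12 bases of the motif in capitals and 6 flanking bases on either side. The first pair stands on the plus strand by left ends and points into the TAD, and the next pair stands on the minus strand by left ends and points out of it. The third pair stands on the plus strand by right ends and points out, and the last pair stands on the minus strand by right ends and points in.
Pdzd9, chr7:120670331-120670354: gaatggCCACCAGGGGGCgctgca
B230206L02Rik, chr11:94133414-94133437: gtctggCCCATAGGTGGCgctgtt
Synm, chr7:67759852-67759875: atctgtCCGGCAGGGGGCgctgtc
Man2b2, chr5:36830645-36830668: ttcctgCCGACAGGCGGCgccgcg
Gorasp2, chr2:70661502-70661525: cggctcCCGTCAGGGGGCgctgtc
Kifap3, chr1:163779436-163779459: tcccatCCTCCAGGGGGCagtgac
Gm15418, chr8:11187691-11187714: aaatcaCCTGTAGGTGGCgccctt
Tmem106c, chr15:97964112-97964135: tacccaCCGGTAGGGGGCgacaga

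All 8 of these peaks were also in the fiber list, beside 85.8% of all epithelium peaks within 10 kb of a TAD end. The Pdzd9 summit had an 11.3-fold enrichment of ChIP over background, in a promoter whose gene start lay 5.25 kb inside the left end of a 90 kb TAD. The B230206L02Rik summit reached 10.5-fold, at a promoter just outside a TAD of 75 kb. Synm, which encodes the intermediate filament protein synemin, had a 9.39-fold summit beside a 590 kb TAD. Both Gorasp2, a Golgi structural protein gene, and Kifap3, a kinesin adaptor gene, lay by ends without a loop anchor, with summits of 6.43-fold and 4.42-fold. The other 6 sites lay by anchored ends.

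CTCF was concentrated at the TAD borders. A summit was found within 10 kb of 1521 of the 3592 ends, or 42.3% (40.7 to 44.0). At TAD centres the share was 9.14% (7.89 to 10.6; 164 of 1794), and at points 100 kb outside it was 16.3% (15.1 to 17.6; 583 of 3576). Ends were thus bound 4.63 times as often as centres (3.98 to 5.39) and 2.60 times as often as outside points (2.39 to 2.82). Over the chromosomes as a whole, 11.2% of consecutive 20 kb tiles held a summit, so that ends stood 3.77 times above this background (3.61 to 3.92). Centres stood below it, at 0.813 times (0.702 to 0.941).

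**Figure D1:**
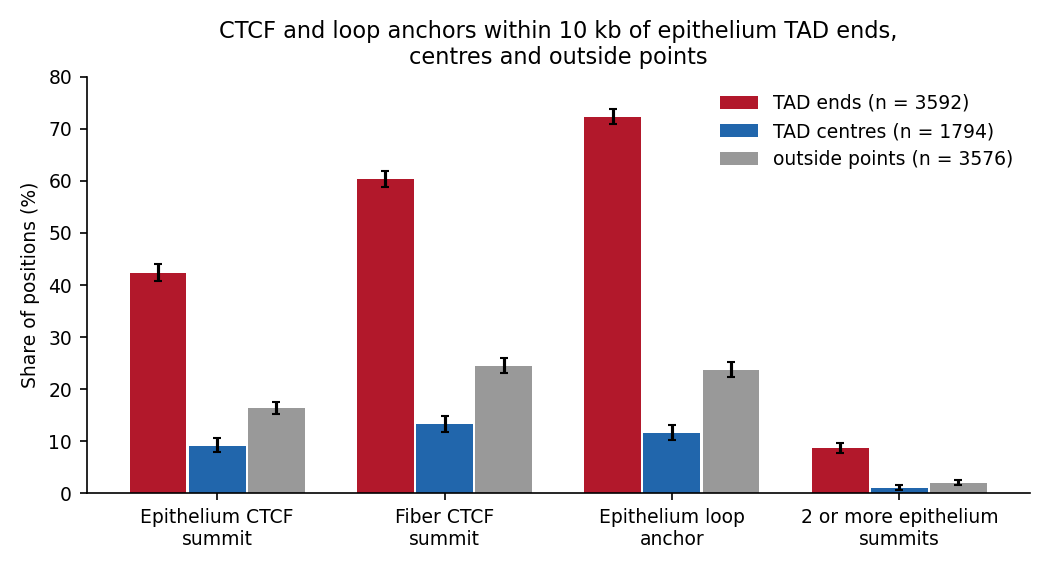
Share of positions (%) with an epithelium CTCF summit, a fiber CTCF summit, an epithelium loop anchor and at least 2 epithelium summits within 10 kb, for 3592 TAD ends (red), 1794 TAD centres (blue) and 3576 points 100 kb outside an end (grey), with 95% Wilson intervals as error bars. In all 4 measures the ends stand highest and the centres lowest.

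Interior and surroundings were therefore not alike. Outside points were bound 1.78 times as often as centres (1.51 to 2.10). Of the outside points, 875 fell into another epithelium TAD and 14.6% of these were bound (12.4 to 17.1), against 16.8% of the 2701 in no TAD (15.5 to 18.3), intervals that overlap.

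Windows with several summits were also most frequent at borders. Of the ends, 2071 had no summit, 1209 had 1, 263 had 2, 38 had 3 and 11 had 4. At least 2 summits were found at 8.69% of ends (7.81 to 9.65), 1.00% of centres (0.636 to 1.58) and 1.99% of outside points (1.58 to 2.50). The ratio of ends to centres was 8.66 (5.40 to 13.9). A ratio above that for any summit follows from a higher mean number alone, so it does not show clustering beyond that mean. The mean number of summits per window was 0.527 at ends, 0.102 at centres and 0.186 at outside points.

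The order of the 3 positions was the same on every chromosome. The bound share was higher at ends than at outside points, and higher at outside points than at centres, on 20 of 20 chromosomes. Among autosomes the share at ends ran from 30.9% on chromosome 16 to 48.4% on chromosome 19, with a median of 42.6%. Shares at centres ran from 4.23% to 18.3%, and at outside points from 11.6% to 21.5%. The ranges of ends and of the other positions do not overlap. Chromosome X held 7 epithelium TADs only, against 12 in the fiber list and 29 in the ES cell list, although 165 epithelium loops and 575 epithelium CTCF peaks were listed on it, and 5 of its 14 ends were bound.

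**Figure D2:**
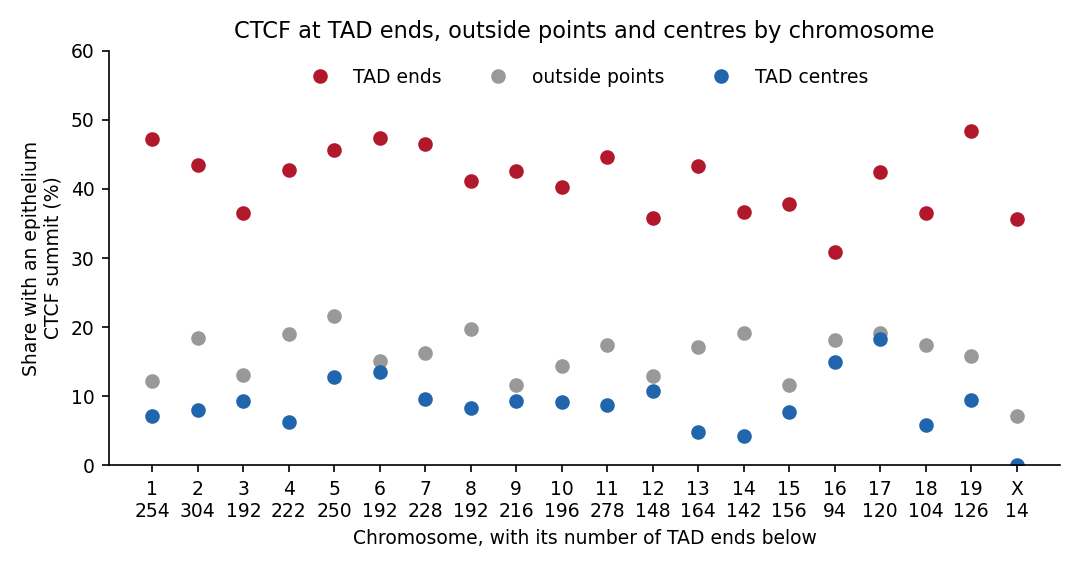
Share (%) of TAD ends (red), outside points (grey) and TAD centres (blue) with an epithelium CTCF summit on each chromosome, with the number of ends under its name; each point is 1 chromosome and position. The red points lie above the grey, and the grey above the blue, on all 20 chromosomes.

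Summits lay closer to ends than to the other positions. The median distance to the nearest summit was 13.8 kb for ends, 54.5 kb for centres and 39.5 kb for outside points. The nearest summit lay within 5 kb of 922 ends, between 5 and 10 kb from 599, and between 10 and 15 kb from 355. At the other extreme, 836 ends had none within 50 kb and 401 had none within 100 kb. TAD ends were listed in steps of 5 kb, so distances below that step carry no more precision than the step itself.

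The profile along the chromosome differed with TAD size. The list holds no TAD between 165 and 305 kb, so it falls into 738 TADs of 60 to 165 kb and 1058 TADs of 305 to 1965 kb, split here at 200 kb. Whether calls made at different resolutions were merged into it is not given in the sources used here, so size and calling resolution cannot be told apart in the contrasts between the classes. In the larger TADs the densest 10 kb lay just inside the end, with 28.5 summits per 100 ends, against 21.5 just outside. In the smaller TADs it lay just outside, with 30.2 against 26.5 just inside. From 150 to 200 kb into the larger TADs the density stayed between 4.21 and 4.77 per 100 ends, below the chromosome mean of 6.37. At the same distances outside it stayed near 8, from 7.94 to 8.18. In the smaller TADs the density was 4.61 at 30 to 40 kb inside and 21.5 at 90 to 100 kb, where the opposite ends of many of them lie.

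**Figure D3:**
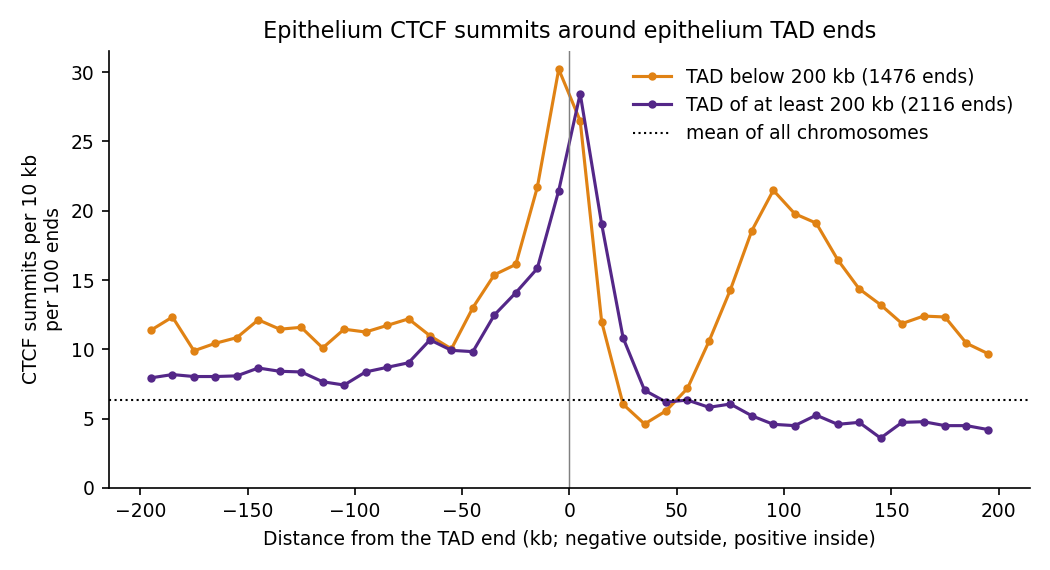
Epithelium CTCF summits per 10 kb and per 100 ends (vertical axis) against distance from the TAD end in kb (horizontal axis, negative outside and positive inside the TAD), for 1476 ends of TADs below 200 kb (orange) and 2116 ends of TADs of at least 200 kb (purple), with the mean over all chromosomes dotted. Both lines peak at the end, the purple line stays under the dotted line deep inside the TAD and above it outside, and the orange line dips and then rises again towards the opposite end.

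Ends of the smaller TADs were bound in 45.3% of cases (42.7 to 47.8) and ends of the larger in 40.3% (38.2 to 42.4), a ratio of 1.12 (1.04 to 1.21). Left and right ends were bound alike in number, 761 and 760. With positive values towards higher coordinates, the summit nearest a bound left end lay at a median of 1.15 kb and that nearest a bound right end at a median of -0.16 kb, both within the 5 kb step of the TAD list. Ends with another TAD end within 20 kb were bound more often, at 53.5% (48.2 to 58.7; n = 344), than ends standing alone, at 41.2% (39.5 to 42.9).

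Of the 11 ends with 4 summits, the 10 whose best summit was strongest were named by the gene over or nearest to them. All 10 had a loop anchor, a fiber CTCF summit and an end of the fiber TAD list within 10 kb, and 8 had an ES cell end. Of all bound ends, 83.4% had an anchor and 94.1% a fiber summit. Of all ends, 69.6% had a fiber end and 46.4% an ES cell end. The left end at position 101910001 of chromosome 11, nearest to the homeobox gene Meox1, had summits of 13.5-fold, 8.36-fold, 6.37-fold and 5.86-fold. The left end at 117510001 of chromosome 5 lay in Ksr2, a scaffold gene of the MAP kinase pathway, and carried 4 loops of 100 to 440 kb. The left end at 122465001 of chromosome 7 lay in Prkcb, encoding protein kinase C beta, with 4 epithelium and 3 fiber summits. The left end at 113870001 of chromosome 13, in Arl15, carried 7 loops, which reached from 70 to 1075 kb. Others lay in or near Clip2, Msrb3, Tmem130, P4ha1 and Fxyd2.

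The 10 ends with the strongest summit ran from 11.8-fold to 16.6-fold. All 10 had an anchor, a fiber summit and an end of both the fiber and the ES cell list, beside the shares given above for bound ends and for all ends. The strongest, 16.6-fold, lay 1.19 kb inside the right end at position 110370000 of chromosome 13, nearest to Gapt, which anchored 3 loops of 305 to 1010 kb. Nyap2 followed the Meox1 end with 13.2-fold at a left end, and next came the end near Srgap1 with 12.6-fold. The end near Kcnj5, which encodes an inwardly rectifying potassium channel, had 12.4-fold and a single loop of 70 kb that matched its TAD in length. Ctif, Vps45, Dclk3, Tmem192 and M1ap completed the set, which was chosen by its fold and so gives no test of it.

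Peaks at ends were hardly stronger than other peaks. Of all epithelium summits, 1839 or 11.2% lay within 10 kb of an end. Their median fold enrichment was 5.96 (quartiles 5.07 and 7.195), against 5.71 (4.72 and 6.83) for the 183 at centres and 5.78 (4.93 and 7.02) for the 654 at outside points. Among the weakest 20% of peaks 10.5% lay at an end (9.50 to 11.6), and among the strongest 20% of peaks 12.2% (11.1 to 13.3).

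A larger contrast was seen in whether a peak was shared with fibers. A fiber peak overlapped 85.8% of the epithelium peaks at ends (84.1 to 87.3), 68.9% of those at centres (61.8 to 75.1), 74.9% of those at outside points (71.5 to 78.1) and 71.1% of the remainder (70.3 to 71.8). Seen from the peaks, 13.2% of the 11914 shared ones lay at an epithelium TAD end (12.6 to 13.9), against 5.85% of the 4460 in the epithelium list alone (5.20 to 6.58). At centres the shares were 1.06% of shared peaks (0.889 to 1.26) and 1.28% of the others (0.988 to 1.65), intervals that overlap. Stronger peaks were shared more often, from 49.7% in the weakest 20% to 95.3% in the strongest 20%, and the part of strength in the contrast was not tested.

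The same windows were read with the fiber peaks, a longer list called separately. Fiber summits lay at 60.4% of epithelium TAD ends (58.8 to 62.0), 13.2% of centres (11.7 to 14.9) and 24.5% of outside points (23.1 to 25.96), with 15.6% of tiles as background. The fiber list exceeded the epithelium list by a similar factor at all 3 positions, 1.43 (1.36 to 1.49) at ends, 1.45 (1.20 to 1.74) at centres and 1.504 (1.37 to 1.65) at outside points. Of the ends bound in epithelium 94.1% were bound in fibers too (92.8 to 95.2), and of those not bound in epithelium 35.6% were (33.6 to 37.7), against 7.42% of unbound centres (6.25 to 8.80). With either list, 62.9% of ends were bound (61.3 to 64.5). At the borders of the fiber TADs themselves, fiber CTCF gave 59.98% of 5277 ends, 11.9% of centres and 25.03% of outside points, and ratios of 5.02 (4.52 to 5.59) and 2.40 (2.28 to 2.52).

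Most ends coincided with a loop anchor. Of the 3592 ends, 2599 or 72.4% had an epithelium anchor within 10 kb (70.9 to 73.8), against 11.5% of centres (10.1 to 13.1), 23.7% of outside points (22.3 to 25.1) and 18.4% of tiles. The ratio was 6.27 over centres (5.51 to 7.14) and 3.05 over outside points (2.87 to 3.25). TADs and loops were called on the same contact map, so these shares do not compare separate assays as the CTCF shares do. Right ends were anchored more often, at 74.9% (72.9 to 76.9), than left ends, at 69.8% (67.6 to 71.8), a difference that epithelium CTCF did not show. Fiber CTCF lay at 62.6% of right ends (60.4 to 64.8) and at 58.1% of left ends (55.8 to 60.4). Ends of TADs below 200 kb were anchored at 78.1% (75.9 to 80.2) and those of larger TADs at 68.3% (66.3 to 70.3).

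Anchored ends were bound by CTCF more often than the rest. A summit was found at 1269 of the 2599 anchored ends, or 48.8% (46.9 to 50.7), and at 252 of the 993 ends without anchor, or 25.4% (22.8 to 28.2), a ratio of 1.92 (1.72 to 2.16). The order held on all 19 autosomes and not on chromosome X, with its 14 ends. By anchor width, the CTCF share was 60.6% by anchors of 5 kb (57.3 to 63.8), 50.5% by anchors of 10 kb (48.0 to 53.1) and 47.4% by anchors of 25 kb (44.7 to 50.1), the last pair with overlapping intervals. An end near anchors of several widths counts in each of these groups, so they share ends. Distance was taken to the edge of the anchor, so the middle of a wide anchor can lie farther from the end. The 1735 ends lying inside an anchor were bound in 53.9% of cases (51.6 to 56.3).

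Ends without anchor still stood above other positions without anchor, and anchored ends above other anchored positions. Among positions without anchor, CTCF was found at 3.33 times the share of centres (2.72 to 4.07) and 2.07 times that of outside points (1.79 to 2.40). Among anchored positions the ratios were 2.35 (1.80 to 3.08) and 1.66 (1.49 to 1.86). Anchored centres were bound at 20.8% (15.8 to 26.8) and anchored outside points at 29.4% (26.4 to 32.5).

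In all, 35.3% of ends had both CTCF and an anchor (33.8 to 36.9), and 20.6% had neither (19.3 to 22.0). A further 742 ends, 20.7% (19.4 to 22.0), had an anchor but no summit of either lens list within 10 kb of the end. A summit inside the anchor but farther than 10 kb from the end was not counted. From the anchored ends, loops ran only into the TAD at 76.8% (75.2 to 78.4), both inward and outward at 18.6% (17.2 to 20.2), and only outward at 4.54% (3.805 to 5.41). Ends with loops both ways were bound most often, at 59.7% (55.3 to 64.0), against 46.5% for inward loops alone (44.3 to 48.7) and 44.1% for outward loops alone (35.4 to 53.1).

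The 5 anchored ends with the most loop contacts and no epithelium summit within 10 kb are examples of ends with an anchor alone. Their anchors can hold a summit farther from the end. They were ranked by raw counts, which favour loops with wide anchors, and not by loop strength. The left end at position 101895001 of chromosome 2, in Commd9, anchored a loop of 100 kb with 238 observed contacts, 2.15 times those expected, and had no fiber summit either. Both ends of the TAD at chr1:179850001-180155000, near Ahctf1 and in the kinase gene Cdc42bpa, were joined by a loop of 275 kb with 227 contacts, 2.91 times expected. No epithelium summit lay at either of them, while the left end had 3 fiber summits. The end near Igfn1 had 226 contacts and 2 fiber summits. The left end in Tsc22d1, on chromosome 14, had 226 contacts and no summit of either list.

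Seen as pairs, both ends of a TAD were bound in 338 TADs (18.8%, 17.1 to 20.7), 1 end in 845 (47.0%, 44.7 to 49.4) and neither in 613 (34.1%, 32.0 to 36.4). The right end was bound in 44.4% of TADs with a bound left end (40.9 to 48.0) and in 40.8% of the others (37.8 to 43.8), intervals that overlap. A single loop joined both ends of 860 TADs, or 47.9% (45.6 to 50.2). The joined share was 35.6% with neither end bound (31.9 to 39.4), 50.2% with 1 (46.8 to 53.5) and 64.5% with both (59.3 to 69.4), intervals that do not overlap. Joining needs an anchor at both ends, however, and anchored ends were bound more often. Both ends were bound in 25.3% of the 860 joined TADs (22.6 to 28.4) and in 23.3% of the 176 TADs anchored at both ends but not joined (17.7 to 30.1). Neither end was bound in 25.3% (22.6 to 28.4) and 32.4% (25.9 to 39.6) of them, again with overlapping intervals, so no difference in CTCF was shown between joined and unjoined TADs once both ends were anchored. Joining was more frequent in the TADs below 200 kb, 58.5% (54.9 to 62.0), than in the larger ones, 40.5% (37.5 to 43.4).

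**Figure D4:**
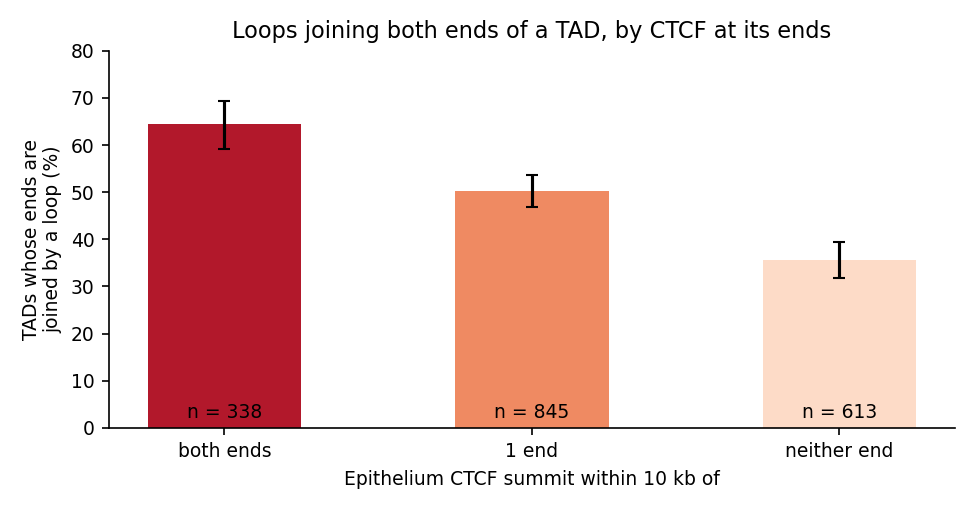
Share of epithelium TADs (%) whose left and right ends are joined by 1 epithelium loop, for TADs with a CTCF summit within 10 kb of both ends (n = 338), of 1 end (n = 845) and of neither end (n = 613); error bars are 95% Wilson intervals. The bars stand at 64.5%, 50.2% and 35.6%, and TADs without an anchor at both ends, which cannot be joined, are included in all 3.

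The 866 loops that joined the ends of a TAD made up 10.8% of the loop list. Their median ratio of observed to expected contacts was 3.399 (quartiles 2.73 and 4.47), against 2.99 for the 2324 other loops with an anchor at an end (2.45 and 3.85) and 3.01 for the 4815 with none (2.45 and 3.98). They were shorter, with a median of 150 kb against 325 and 225 kb, and the part of length in this difference was not tested. Both anchors held a summit in 18.8% of the joining loops (16.4 to 21.6), 19.1% of the other loops at ends (17.5 to 20.7) and 12.9% of the loops away from ends (12.0 to 13.9).

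Among TADs bound at both ends and joined by a loop, the 10 with the most contacts had from 148 to 260 observed, 2.03 to 3.21 times expected. The median ratio of all joining loops was 3.399. All 10 loops had anchors of 25 kb. Contacts are raw counts between anchors of 5, 10 or 25 kb, and wider anchors collect more. The rank is therefore no measure of loop strength. The TAD at chr2:72305001-72385000 lay wholly in Map3k20, a stress-activated kinase gene, with 260 contacts and summits of 4.97-fold and 9.55-fold. The TAD at chr5:144880001-144990000 ran from Smurf1, a ubiquitin ligase gene, to Kpna7, with 226 contacts and summits of 8.89-fold and 4.63-fold. The TAD at chr1:189000001-189630000, from Kctd3 to near Cenpf, was joined by a loop of 625 kb with 196 contacts, 3.21 times expected. On chromosome 19, a TAD from the exocyst gene Exoc6 to the myoferlin gene Myof enclosed Cyp26a1 and Cyp26c1, which encode enzymes that degrade retinoic acid, and had 150 contacts with summits of 5.05-fold and 5.75-fold. The remaining 6 had Igfn1, Scml4, Daam2 and Kif6, Hdac4 and Ndufa10, Cers3, and Casc1 at their ends.

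Borders listed in other cell types were bound more often. An end of the fiber TAD list lay within 10 kb of 69.6% of epithelium ends (68.1 to 71.1), and an ES cell end within 10 kb of 46.4% (44.8 to 48.0). Fiber ends lay by 1.34% of centres and 9.31% of outside points, and ends of the longer ES cell list by 2.73% and 11.9%. The 1338 ends found in all 3 lists had epithelium CTCF at 53.7% (51.0 to 56.3) and an anchor at 82.2% (80.1 to 84.2). The 764 ends of the epithelium list alone had CTCF at 28.9% (25.8 to 32.2) and an anchor at 55.0% (51.4 to 58.5). The ratio for CTCF was 1.86 (1.64 to 2.10). Ends shared with only fibers stood at 38.6% (35.9 to 41.5), and ends shared with only ES cells at 40.5% (35.4 to 45.9), intervals that overlap. Ends of the epithelium list alone remained 1.77 times above outside points (1.55 to 2.03).

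Anchor and listing each went with CTCF when the other was held. Among anchored ends the CTCF share was 58.4% in all 3 lists (55.4 to 61.2) and 35.5% in the epithelium list alone (31.1 to 40.2). Among ends without anchor it was 31.9% (26.3 to 38.1) and 20.9% (17.0 to 25.5). Fiber CTCF at the same ends was 73.4% in all 3 lists (71.0 to 75.7) and 42.5% in the epithelium list alone (39.1 to 46.1).

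**Figure D5:**
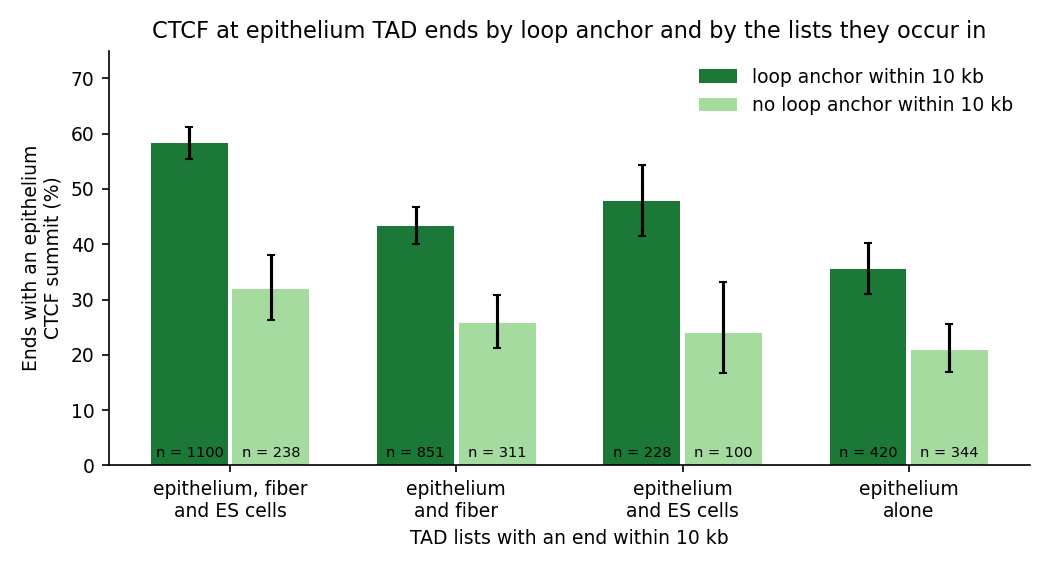
Share of epithelium TAD ends (%) with an epithelium CTCF summit, by the cell types whose TAD list has an end within 10 kb (horizontal axis) and by the presence (dark green) or absence (light green) of an epithelium loop anchor; n is the number of ends and error bars are 95% Wilson intervals. In each of the 4 classes the anchored ends stand higher, and the highest share is that of the 1100 anchored ends present in all 3 lists.

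TAD ends lay near gene boundaries more often than the other positions did, while the bound share of ends was about the same with and without a gene boundary. The start or end of a protein-coding gene lay within 10 kb of 46.0% of TAD ends (44.3 to 47.6), 20.2% of centres (18.4 to 22.2), 35.2% of outside points (33.6 to 36.7) and 21.1% of tiles. TAD ends near a gene boundary were bound at 41.9% (39.6 to 44.3) and the others at 42.7% (40.5 to 44.9). At outside points the shares were 20.7% (18.5 to 23.0) and 13.9% (12.6 to 15.4). The ratio of ends to outside points was therefore 2.03 near gene boundaries (1.79 to 2.29) and 3.07 away from them (2.74 to 3.44), and that of ends to centres 4.004 (2.95 to 5.44) and 4.85 (4.07 to 5.78).

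A list of 54 lens genes was read for its position. Of these, 20 were assigned to an epithelium TAD, 37.0% (25.4 to 50.4) beside 17.8% of all 21631 protein-coding genes. A TAD end lay within 10 kb of 18, 33.3% (22.2 to 46.6) beside 13.3%. Assigned genes need not lie wholly within a TAD. Maf and Fgfr2, which cross a TAD end, are among the 20, while Prox1 and Notch2, which also cross one, are not. The 18 genes had 21 distinct ends, of which 18 were anchored and 12 had an epithelium CTCF summit, beside 72.4% and 42.3% of all ends. Of the 20 genes assigned to TADs, 11 had a TAD whose ends were joined by a loop and 6 a TAD bound at both ends, beside 47.9% and 18.8% of all TADs.

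Among the transcription factor genes, the ends at Sox2, Maf, Prox1 and Pitx3 were bound. Sox2, which acts from the earliest lens placode, lay 9.99 kb from a right end with summits of 9.74-fold and 5.98-fold and 3 loops of 400 to 840 kb. Maf, a direct activator of crystallin genes, spanned a left end with a 6.35-fold summit and 6 loops of 275 to 1225 kb. Prox1, required for fiber elongation, had 2 ends, with summits of 6.46-fold and 6.27-fold, and the first alone was anchored. Pitx3 lay by a left end with a 4.03-fold summit. Sox1, a crystallin gene regulator, lay 0.518 kb from a right end that had an anchor and a fiber summit but none in epithelium.

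Receptor and cell cycle genes were divided. The end by the FGF receptor gene Fgfr1 had a 5.97-fold summit. Fgfr2 filled a TAD of 100 kb whose ends were joined by a loop of 90 kb with 62 contacts, 3.04 times expected, and had no epithelium summit at either end, while the right end had 3 fiber summits. The Notch ligand gene Jag1 had a bound end (4.76-fold) with 3 loops, and the receptor gene Notch2 an anchored end with no summit of either list. Cdkn1c, a cyclin-dependent kinase inhibitor gene, had summits of 7.01-fold and 6.43-fold near its right end, the second of them in the Gm33663 promoter. Ccnd1, encoding cyclin D1, had a 9.25-fold summit.

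Ends at structural genes of the lens were found with and without a summit. Bfsp2 and Vim, for intermediate filament proteins, and Cryba1, for a beta-crystallin, had anchored ends with no summit of either list. Of the 2 left ends at Bfsp1, the partner of Bfsp2 in the beaded filament, 1 had a 5.94-fold summit and neither was anchored. The alpha-crystallin gene Cryaa lay 3.27 kb from a left end with a 4.66-fold summit. The beta-crystallin gene Crybb3 lay 7.76 kb from a left end with summits of 8.76-fold and 8.24-fold. In all, 7 of the 21 ends at lens genes had no summit of either list within 10 kb, beside 1333 of all 3592 ends. An anchor at such an end can still hold a summit farther away.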

How the data were processed

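Hi-C libraries of 2 pooled samples per cell type were aligned by the authors with BWA and merged; per the labels the build was mm10. Loops (HiCCUPS) and TADs (Arrowhead) were called with Juicer Tools 2.13.06, the version in the file headers, on contacts of mapping quality at least 30. CTCF reads were aligned with BWA, and peaks called with MACS2. In the deposited loop list the observed contacts are counts, the expected contacts are a modelled signal, and FDR columns are q-values. In the deposited peak list fold enrichment is a ratio, with p-values and q-values as −log10 and a display score. Replicates cannot be separated in the lists, which do not hold the depth.

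The rule, its members and all gene lists were chosen with earlier results of these data known. Window counts were made in pandas 2.3.3 and numpy 2.4.6 under Python 3.11.15, with normal quantiles for the intervals from scipy 1.17.1, and the functions were checked on simulated data. A loop joined a TAD where its anchors lay within 10 kb of the respective ends. Peaks were shared where intervals overlapped by at least 1 base. Named ends were the 10 with most summits (ties by the strongest summit), the 10 with the strongest summit, the 10 joined TADs bound at both ends with most contacts, the 5 anchored ends with most contacts and no summit, and every end within 10 kb of a lens gene. Some of these are counted but not reported here by name. No test was made, since each cell type has 1 merged list. Gene positions and promoters came from RefSeq GRCm38.p6. The ES cell loops were not used here.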

Additional observations from a re-analysis of the deposited data

How the results depend on the processing

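No paired analysis was possible by replicate number because the results come from merged lists and from no test. Ends, centres and outside points could be paired by the TAD they come from, but this pairing was not used. The Katz intervals of the ratios treat these positions as independent samples. Of 95 alternative values, 57 lay within the 95% interval of the reported one, 38 lay outside it, and no ratio fell to the other side of 1. Some of the 57 could not change, such as the shares at ends and centres where only the outside points were redefined. The count of 57 therefore overstates how stable the results were. With windows of 5 kb the shares at ends, centres and outside points were 25.7%, 5.02% and 8.67%, and the ratio of ends to outside points 2.96; with windows of 25 kb they were 64.7%, 19.96% and 35.5%, with ratios of 3.24 over centres and 1.83 over outside points. The stronger 50% of peaks gave 25.5%, 4.74%, 8.75% and a ratio of 2.91 over outside points. Fiber peaks gave 60.4%, 13.2% and 24.5%. TADs of at least 200 kb gave 40.3% of ends and 14.2% of outside points (ratio 2.83), and those below 200 kb 45.3% and 19.4% (ratio 2.34). Outside points over 20 kb from every end were bound at 15.04%. Leaving out 1 chromosome at a time kept the share at ends between 42.0% and 42.7%, at centres between 8.82% and 9.35%, and at outside points between 15.9% and 16.6%. The ratios then stayed between 4.51 and 4.80, and between 2.53 and 2.65.

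The share of anchored ends was 55.3% for anchor midpoints within 10 kb, 48.3% for ends inside an anchor, 85.9% within 25 kb, 56.9% with anchors of 5 or 10 kb only, 64.0% for loops with every FDR below 1%, and 68.3% and 78.1% for TADs of at least and below 200 kb. CTCF at anchored ends was 30.1% and at others 14.0% with 5 kb windows, 70.0% and 51.1% with 25 kb windows, and 54.5% at ends anchored by midpoint. Within 25 kb, 70.6% of TADs were joined by a loop, 82.0% of ends had a fiber end and 66.6% an ES cell end. Depth, which the lists do not give, limits what an unbound end means: no summit was listed there, which does not show that CTCF was absent.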
